A study of Mus musculus with 40 samples.

Results

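The livers of germ-free mice that received delta-valerobetaine (VB) were compared between a Western diet and a control diet. The mice were chosen by their sample titles, which place 5 mice on the Western diet with VB and 5 on the control diet with VB, 10 of the 20 mice in the series and 20 of its 40 lane files. Per the labels, all were male C57BL/6 mice with a germ-free background, that is, kept without microbes, and all had been treated for 6 weeks when taken at postnatal day 64. The other 10 mice received vehicle, 5 on each diet, and are used here to ask whether a diet change differed between treatments. They also enter the fit that sets the spread for the VB comparison, the principal components and the clock score. The sources used here give neither the dose of VB nor the composition of the diets, and the labels name no cage or litter. RNA of whole liver was read as counts per gene, and each mouse is the sum of 2 lanes of its library. In 1 lane file the treatment label of Western diet VB mouse 1 says vehicle while the title says VB. In every mouse the counts of the 2 lanes differed less than those of any 2 mice of a group. That goes with 1 library but does not give its treatment. The library name of both lane files of this mouse holds VB, and the title was followed.

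VB is a trimethylated compound made by gut bacteria and resembles the precursor from which the body makes carnitine, the carrier of long-chain fatty acids into mitochondria. The liver matches cholesterol synthesis to cholesterol supply: SREBP2 switches on the synthesis enzymes when sterols are low, and the oxysterol receptor LXR switches on sterol export when they are high. Drug-metabolizing cytochromes P450 answer to the receptors CAR, PXR and AHR. Major urinary proteins (Mup) and a group of P450 enzymes depend on the pulse pattern of growth hormone and differ between male and female liver.

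In VB mice on the Western diet nearly the whole cholesterol synthesis pathway fell, the sterol exporters Abcg5 and Abcg8 rose, all 21 tested Mup genes rose and 10 genes of drug-metabolizing P450 enzymes fell, while no gene of mitochondrial fatty acid oxidation passed the test without a covariate. Of 12616 genes tested, 813 (6.44%) changed at an adjusted p under 0.05, 407 higher (3.23%) and 406 lower (3.22%). The test was edgeR's quasi-likelihood test with Benjamini-Hochberg adjustment over all genes, and log2 changes below are Western over control diet. The median absolute log2 change of the 813 genes was 0.68, against a median signed change of 0.002 over all genes tested. At least a 2-fold change was seen in 226 of them (1.79% of genes tested), 117 higher (0.927%) and 109 lower (0.864%). The levels of both groups of 5 mice did not overlap in 1190 genes (9.43%; 4.95% higher and 4.48% lower), which include 623 of the 813.

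Counts ran from 19762505 to 23202394 per mouse on the control diet and from 18157449 to 24566686 on the Western diet. On the first principal component of all 20 mice (22.4% of variance), Western diet VB mice 1 and 4 lay at 19.2 and 32 and the other 3 of their group between 1.8 and 2.7. Farthest out lay Western diet vehicle mouse 4, at 62.7, with 4.62% mitochondrial counts (1.99% to 3.33% in VB mice) and the lowest TMM factor of all 20 mice, 0.823. Without mice 1 and 4 the count was 493, and without mice 2 and 5, in which the fat cell marker Adipoq was present, it was 520. Leaving out single mice gave from 541 (without control diet VB mouse 4) to 1397 (without Western diet vehicle mouse 4, which shares the estimate of the spread), and fitting only the VB groups gave 1103. A score of clock gene levels (component 1 of a principal component analysis of 21 clock genes, here the clock score) overlapped between the diets in VB mice, from -0.43 to 0.16 on the control diet and from -0.17 to 0.69 on the Western diet. Western diet VB mice 2 and 5 lay within the control diet range, and mice 1, 3 and 4 lay above it. The score is no measured time of day, and effects of diet or VB on these genes would enter it too. With this score as a covariate 737 genes were called, 593 of the 813 among them, and all 813 kept their sign, but 39.6% of calls were then higher in place of 50.1%. The names of the libraries take a different form on each diet, and a handling batch that went with the form cannot be told apart from diet.

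Cholesterol synthesis fell almost as a whole: 19 of 20 tested genes fell and none rose, with a median log2 change of -1.59. In 17 of the 20 the groups did not overlap. All 11 enzymes from acetyl-CoA to lanosterol fell (median -1.84), and 8 of the 9 from lanosterol to cholesterol (median -1.46). With single mice left out, between 17 and 19 genes fell.

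Sqle, which encodes squalene epoxidase, the first oxygen-dependent step of sterol synthesis, had the largest fall of the pathway (chromosome 15, 59315077 to 59331192, plus strand, GRCm38). Its levels were 51.6, 112, 93.7, 65.8 and 75 CPM (counts per 1e+06 counts of the mouse) in the 5 control diet mice and 3.17, 3.13, 1.8, 1.34 and 2.11 in the 5 Western diet mice. Every Western diet mouse was far below every control diet mouse, and the mean went from 79.7 CPM ± 23.8 to 2.31 ± 0.813 (SD, n = 5 mice in each group). That is a log2 change of -5.12 (SE 0.26, adjusted p = 4.26e-11). Idi1, which encodes the isomerase that makes the second isoprene unit, lay at 178, 225, 275, 201 and 227 CPM on the control diet. On the Western diet it lay at 17.5, 17.2, 21, 18.1 and 17.6. The 5 Western diet mice lay close together, and its log2 change was -3.60 (SE 0.15, adjusted p = 3.84e-13). Cyp51, which encodes lanosterol demethylase, went from 169 CPM ± 22.4 to 22.5 ± 3.22 and changed by -2.91 (SE 0.15).

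Hmgcs1, which encodes an early enzyme of the mevalonate pathway, lay at 190.5, 397, 425, 267 and 292 CPM on the control diet and 66.8, 53.1, 69.2, 75.6 and 36.2 on the Western diet. Its groups did not overlap, and the log2 change was -2.38 (SE 0.23). Among the other synthesis genes that fell, values ranged from -2.60 for Fdps and -2.35 for Fdft1, which encode the synthases of farnesyl diphosphate and squalene, to -0.80 for the desaturase gene Sc5d and -0.31 for the isomerase gene Ebp. Ebp passed narrowly (adjusted p = 0.0439) and lost its call in 13 of the 20 fits that left out 1 mouse, with no filter on low counts (-0.32), in lane 1 alone (-0.29) and without Western diet VB mice 2 and 5 (-0.25).

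The sequences before the start of 3 of these genes are shown, because the whole pathway moved together and factors that control it bind near the start. They are the 250 bases upstream of the RefSeq start on GRCm38.p6, 5′ to 3′ on the gene's strand, for Idi1 (chr13:8885356-8885605, plus strand), Cyp51 (chr5:4104698-4104947, minus strand) and Hmgcs1 (chr13:119690101-119690350, plus strand). Capitals mark CCAAT, the letters bound by the cofactor NF-Y, on either strand (ATTGG on the other), and in Hmgcs1 also the sterol response element letters TCACNCCAC.
Idi1: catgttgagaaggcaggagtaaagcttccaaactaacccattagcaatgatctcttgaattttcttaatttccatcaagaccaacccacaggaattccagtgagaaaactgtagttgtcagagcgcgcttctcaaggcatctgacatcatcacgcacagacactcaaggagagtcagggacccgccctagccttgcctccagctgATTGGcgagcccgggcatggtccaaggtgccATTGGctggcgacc
Cyp51: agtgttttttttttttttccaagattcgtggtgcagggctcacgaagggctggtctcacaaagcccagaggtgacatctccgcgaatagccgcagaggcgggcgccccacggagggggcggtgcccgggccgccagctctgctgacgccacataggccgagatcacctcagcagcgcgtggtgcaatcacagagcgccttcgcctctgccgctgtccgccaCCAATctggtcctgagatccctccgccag
Hmgcs1: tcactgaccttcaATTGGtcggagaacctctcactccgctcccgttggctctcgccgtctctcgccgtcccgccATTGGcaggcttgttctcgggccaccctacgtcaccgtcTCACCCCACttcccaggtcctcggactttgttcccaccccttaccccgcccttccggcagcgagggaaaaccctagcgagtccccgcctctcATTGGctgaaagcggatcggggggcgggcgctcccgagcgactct
CCAAT stood in the 250 bases before 14 of the 15 cholesterol synthesis genes that have a promoter entry (93.3%). It stood before 10133 of all 27025 genes with an entry (37.5%) and 3837 of the 9448 tested genes with an entry (40.6%). A gene counts if any of its entries holds the letters. TCACNCCAC stood before 1 of the 15 (Hmgcs1, written TCACCCCAC on the plus strand, beginning 137 bases before the start) and before 331 of all genes (1.22%). Neither overlapped the other. A match describes letters in this window and no binding was measured.

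The regulators of the pathway followed in few genes. Of 11 tested genes of SREBP2 control and lipoprotein uptake 2 fell and none rose, with a median of -0.39, while 4 fell without Western diet vehicle mouse 4. Srebf2, which encodes SREBP2 itself, lay at 34.1, 41.4, 38.4, 33.6 and 35.2 CPM on the control diet and 27.6, 17.7, 22.4, 21.1 and 21.7 on the Western diet. The groups did not overlap, and the log2 change was -0.73 (SE 0.12, adjusted p = 0.0006). Stard4, which encodes a carrier of cholesterol inside cells, fell by 0.83 (SE 0.16). Insig1, which encodes the anchor that holds SREBP in place, did not pass, at -0.39 (SE 0.24, adjusted p = 0.362).

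**Figure D1:**
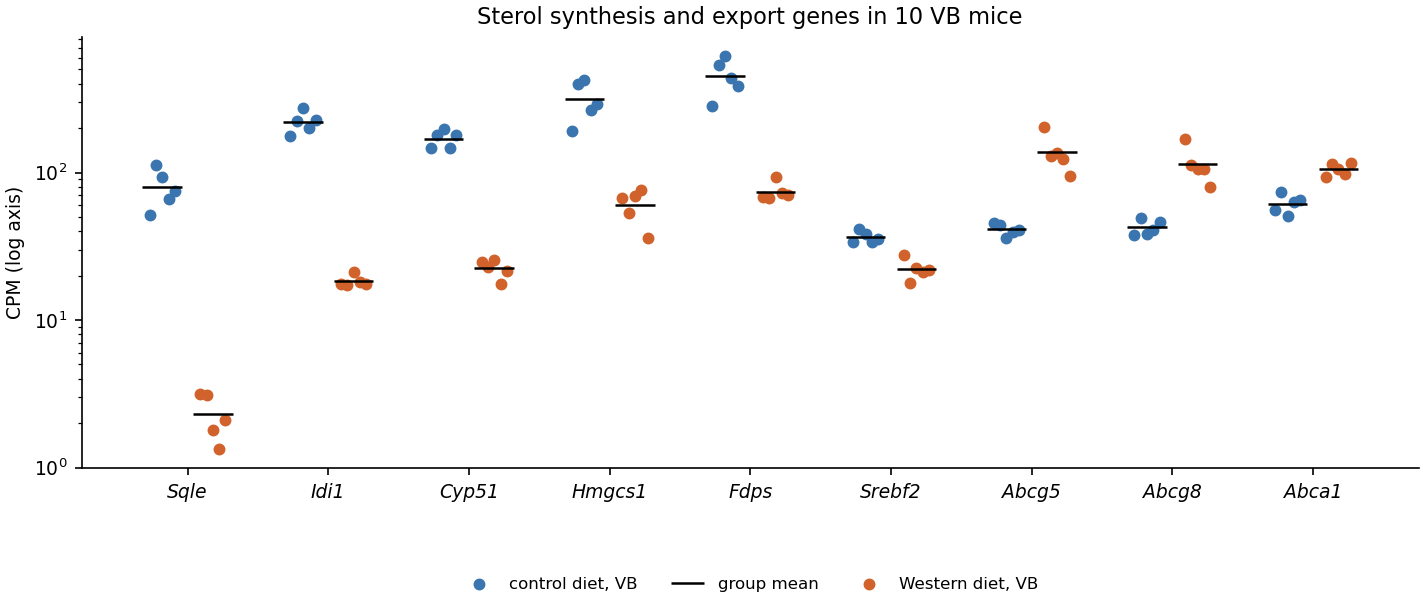
Levels (CPM, log axis) of 6 genes of sterol synthesis and its control and 3 sterol exporters in the 5 control diet (blue) and 5 Western diet (orange) VB mice, with 1 point per mouse and a line at the group mean. Sqle, Idi1 and Cyp51 lie apart between the diets, and Abcg5, Abcg8 and Abca1 lie higher in every Western diet mouse.

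Sterol export moved the other way. Among 12 tested LXR targets and export genes 3 rose and 1 fell (median 0.15), and the 3 that rose were the transporters Abcg5, Abcg8 and Abca1. Abcg5 and Abcg8 together encode the pump that moves cholesterol into bile. Abcg5 lay at 45.7, 43.8, 36, 39.3 and 40.8 CPM on the control diet and 202, 129.8, 135, 123 and 94.2 on the Western diet, with the highest level in mouse 1. Its log2 change was 1.74 (SE 0.17, adjusted p = 5.15e-07). Abcg8 followed, from 42.6 CPM ± 5.12 to 115 ± 33.1, with a log2 change of 1.43 (SE 0.17). The genes lie on opposite strands of chromosome 17 and overlap (Abcg5 from 84658234 to 84683011, Abcg8 from 84676302 to 84700333), and with the strand setting of the counting unknown reads of the overlap cannot be told apart. Abca1, which loads cholesterol onto HDL, rose by 0.78 (SE 0.12). Pltp, which encodes a phospholipid carrier of plasma, fell from 92.5 CPM ± 45.8 to 21.4 ± 6.96 CPM, a log2 change of -2.11 (SE 0.37, adjusted p = 0.00187). The receptor genes themselves did not pass, with Nr1h3 at 0.11 (SE 0.08) and Nr1h2 at -0.06 (SE 0.13).

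Of 24 tested bile acid genes (26 listed) 3 rose and 3 fell (median -0.15). Abcc3, which encodes an exporter of conjugates into blood, was 1 of the 3 that fell. It lay at 249, 248, 268, 212 and 266 CPM on the control diet and 78, 96.2, 104, 102 and 60.9 on the Western diet, so every Western diet mouse held less than the lowest control mouse (log2 change -1.49, SE 0.22). Slco1a4, an uptake transporter gene, fell by 1.76 (SE 0.30), and Cyp27a1, of the alternative pathway of bile acid synthesis, by 0.33 (SE 0.08), a call lost without Western diet VB mice 2 and 5 or 1 and 4 (-0.33 each). Cyp7a1, the rate-limiting enzyme of bile acid synthesis, had a higher mean on the Western diet but did not pass. Its levels ran from 5.94 to 54.4 CPM on the control diet and from 39.2 to 86.5 on the Western diet (log2 change 1.15, SE 0.42, adjusted p = 0.118), and it passed without control diet VB mouse 3 (1.64), with a replicate block (1.28) and by limma-voom (1.46, with quality weights 1.38). The genes that rose were Cyp7b1, Cyp2c70 and Amacr, of the alternative pathway, muricholic acid synthesis and side-chain oxidation. That count was 1 without control diet VB mouse 1 or 3 or Western diet VB mouse 2 or 5, and 0 without control diet VB mouse 2 or 4. With no filter on low counts Cyp7b1 (1.25) and Amacr (0.30) were not called, nor was Amacr with the clock score (0.27) or Cyp7b1 with only the VB groups in the fit (1.27).

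Most genes of fatty acid and triglyceride metabolism did not pass. The called share in the lipogenic and droplet groups was still above that of all genes tested (6.44%). Of 21 lipogenic genes 2 rose and 3 fell (median -0.12), and the 2 that rose were regulators. Srebf1, which encodes the sterol-responsive activator of lipogenesis and is itself an LXR target, lay at 67.8, 148, 91.3, 66.5 and 65.6 CPM on the control diet and 649, 332, 337, 247 and 196 on the Western diet. The lowest Western diet mouse was above the highest control mouse, and the log2 change was 2.00 (SE 0.37, adjusted p = 0.0024). Mlxipl, which encodes the glucose-responsive activator ChREBP, rose from 73.5 CPM ± 9.63 to 111 ± 20.3, by 0.59 (SE 0.13). Fasn, the fatty acid synthase gene, spread from 127 to 574 CPM on the control diet and from 112 to 279 on the Western diet and did not pass (-0.58, SE 0.42). The desaturase gene Scd1 did not pass either (0.62, SE 0.37), while Acss2, which makes acetyl-CoA from acetate, fell by 1.86 (SE 0.22). The other 2 that fell were the citrate carrier gene Slc25a1 (-0.34) and the desaturase gene Fads1 (-0.75). Neither passed without control diet VB mouse 2 (-0.30 and -0.68) or 3 (-0.30 and -0.74). Fads1 was also lost without control diet VB mouse 4 (-0.75), without Western diet VB mouse 2 (-0.68), 4 (-0.77) or 5 (-0.67), with the mouse number as a replicate block (-0.73), with no filter (-0.77) and without Western diet VB mice 1 and 4 (-0.86). Without mice 2 and 5, Fads1 (-0.55), Slc25a1 (-0.25) and Mlxipl (0.49) were not called.

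Of 29 lipid droplet and triglyceride genes 2 rose and 5 fell (median -0.08), while 4 rose without Western diet vehicle mouse 4. Lpl, which encodes the lipase that frees fatty acids from circulating triglyceride, lay at 14, 13.4, 8.83, 10.6 and 14.3 CPM on the control diet and 17.9, 43.7, 23, 24.5 and 38.3 on the Western diet. Western diet mice 2 and 5, in which the fat cell marker Adipoq was present, held the highest levels, yet all 5 lay above the control range (log2 change 1.27, SE 0.20, adjusted p = 0.000323), and the gene passed also without these 2 mice. Agpat2, of triglyceride synthesis, rose by 0.41 (SE 0.10). Plin5, which encodes a droplet coat protein of fat-oxidizing cells, fell from 179.9 CPM ± 38 to 102 ± 17.2, a change of -0.81 (SE 0.16). Lpin1, which encodes a phosphatidate phosphatase, fell by 1.09 (SE 0.20), the carboxylesterase gene Ces1d by 0.98 (SE 0.12), its relative Ces1g by 0.72 (SE 0.10) and the lipoprotein receptor gene Vldlr by 2.07 (SE 0.48). The common droplet genes of fatty liver did not pass. Cidec lay at 2.63, 2.88, 4.08, 3.76 and 4.66 CPM on the control diet and 2.86, 12.1, 5.36, 13.8 and 8.03 on the Western diet (log2 change 1.23, SE 0.44, adjusted p = 0.109). It passed without Western diet vehicle mouse 4 (1.22). The droplet coat gene Plin2 (0.0029, SE 0.12), Pparg (-0.31, SE 0.23) and the fatty acid receptor gene Cd36 (-0.18, SE 0.31) did not pass. Among 16 apolipoprotein genes 2 rose, Apoa4 from 134 CPM ± 68 to 480.1 ± 127 CPM (1.84, SE 0.34) and Apoc2, the cofactor of Lpl, by 0.83 (SE 0.16).

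None of 18 tested genes of mitochondrial fatty acid oxidation passed in either direction (median -0.12), but 2 fell with the clock score as a covariate (median -0.17). Cpt1a, which encodes the entry step, lay at 279.8, 252, 264, 268 and 321 CPM on the control diet and 242, 221, 265, 246 and 272 on the Western diet, with overlapping groups (-0.15, SE 0.15). Of 6 tested carnitine genes (7 listed) 1 fell, the synthesis enzyme Aldh9a1 (-0.36, SE 0.08). The carnitine transporter gene Slc22a5 did not pass (-0.58, SE 0.23, adjusted p = 0.138), but did without control diet VB mouse 2 (-0.73), and Bbox1, which completes carnitine synthesis, stood at -0.07 (SE 0.09). Of 31 PPARA targets 1 rose and 2 fell (median -0.22). Abcd2, which encodes a peroxisomal fatty acid transporter, lay at 14.6, 15.8, 14.7, 12.1 and 11.2 CPM on the control diet and 1.06, 1.75, 1.8, 1.29 and 1.01 on the Western diet. The groups lay far apart, with a log2 change of -3.29 (SE 0.29, adjusted p = 1.32e-07). Cyp4a14, a fatty acid hydroxylase gene, lay at 923, 277, 287, 660.1 and 478 CPM on the control diet and 22.9, 19.3, 65.7, 153 and 2.11 on the Western diet, lowest in Western diet mouse 5. Its log2 change of -3.32 (SE 0.88, adjusted p = 0.0317) was -4.25 without Western diet VB mouse 4. The call was lost without control diet VB mouse 1 (-3.02) or 4 (-3.22) and without Western diet VB mouse 1 or 2 (-3.13 each) or 3 (-3.41). It was also lost with no filter on low counts (-3.34, adjusted p = 0.0565), with only the VB groups in the fit (-3.33, adjusted p = 0.0679) and without Western diet VB mice 2 and 5 (-2.73). Its relative Cyp4a12b, a male-biased gene, rose by 1.00 (SE 0.17).

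In these lipid groups the vehicle mice differed from the VB mice by the test of the difference itself. That test compares the diet change in VB mice with that in vehicle mice, which share no animal, and called 964 genes (7.64%), 458 higher (3.63%) and 506 lower (4.01%) in VB relative to vehicle mice. Of the 18 oxidation genes 11 rose in vehicle mice (8.92% of all genes tested rose there), and the diet effect was lower in VB mice in 10. Of the 31 PPARA targets 18 rose in vehicle mice, with 18 lower and 1 higher in the difference. Of the 29 droplet genes 14 rose and 3 fell in vehicle mice, with 10 lower and 1 higher in the difference. Cidec changed by 5.16 (SE 0.49) in vehicle mice, a difference of -3.93 (SE 0.64, adjusted p = 0.00123). Its levels in vehicle mice ran from 1.24 to 3.11 CPM on the control diet and from 35.1 to 159.9 on the Western diet. For Pparg the difference was -2.09 (SE 0.32), for Cpt1a -1.06 (SE 0.21) and for Abcd2 -3.02 (SE 0.39). On the control diet Cpt1a had a mean of 188 CPM in vehicle and 277 in VB mice, and on the Western diet 354 and 249. Abcd2 had means of 6.32 and 13.7 CPM on the control diet and 5.2 and 1.38 on the Western diet. In both genes the control diet mean was thus also higher in VB mice. The clock score also separated the vehicle groups, from -1.99 to -0.75 on the control diet and from 1.02 to 1.36 on the Western diet. On neither diet did it overlap between VB and vehicle mice. Of its 21 genes the difference was called higher in 4 and lower in 9. With the score as a covariate the difference called no gene in edgeR's quasi-likelihood test, and 869 of the 964 genes kept their sign. Of the 12616 genes 633 then had an unadjusted p under 0.05, about the number that chance gives at that cutoff. The score itself holds part of the difference, so this fit cannot decide how far the difference goes with clock state. DESeq2 called 1291 genes without the covariate. Without Western diet vehicle mouse 4 the difference called 1702 genes, and without both Western diet VB mice 2 and 5 it called 526.

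**Figure D2:**
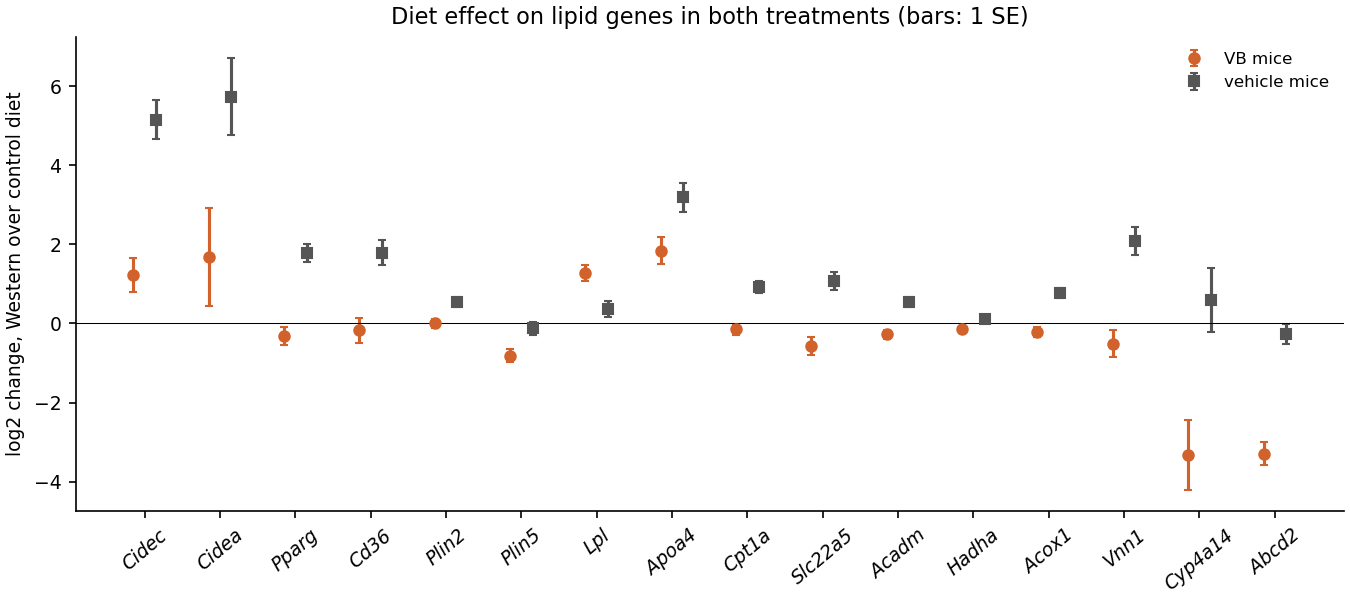
Log2 change, Western over control diet, of 16 lipid genes in VB mice (orange circles) and vehicle mice (grey squares), with bars of 1 SE from the edgeR fit of all 20 mice. Cidec lies at 1.23 in VB mice and 5.16 in vehicle mice, and Abcd2 lies at -3.29 in VB mice.

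The Mup genes rose together. These genes encode small pheromone carriers that male liver secretes in large amounts, and they share long stretches of sequence, so the split of reads among single members is uncertain. All 21 tested members rose, with a median log2 change of 2.06, and the count was 18 to 21 with single mice left out. All 21 stayed higher with RLE or upper-quartile scaling and with Mup counts left out of the library sizes. As a share of all counts they took 6.25%, 6.55%, 7.13%, 8.08% and 9.82% in the control diet mice and 19.6%, 25.2%, 15.8%, 16.3% and 24.6% in the Western diet mice. The lowest Western diet mouse was thus above the highest control mouse, and mice 2 and 5 were the highest.

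Mup1 (chromosome 4, 60498012 to 60501960, minus strand, GRCm38) lay at 269.8, 312, 432, 446 and 867 CPM on the control diet and 3275, 5352, 2385, 2490.1 and 5394 on the Western diet. It rose 8.12-fold, a log2 change of 3.02 (SE 0.33, adjusted p = 8.97e-06). Mup15 was among the members that rose most, from 486 CPM ± 382 to 8745 ± 4628 (SD, n = 5 mice in each group), by 4.17 (SE 0.59). Mup19 was already abundant on the control diet and rose from 7033 CPM ± 2092 to 29313 ± 8069.6 CPM, by 2.06 (SE 0.21). In vehicle mice 2 of the 21 rose, and the diet effect was higher in VB mice in 17. Mup1 ran from 709 to 1436 CPM on the control diet and from 939 to 1537 on the Western diet in vehicle mice, so control diet VB mice lay partly below and Western diet VB mice wholly above both vehicle groups (difference 2.79, SE 0.44, adjusted p = 0.000853).

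Other genes that differ between the sexes moved in the male direction in part. Of 18 male-biased genes 8 rose and none fell (median 0.63). Of 16 female-biased genes on the list 7 had enough counts to be tested, and of these 5 fell and none rose (median -1.52). The male count was 4 without control diet VB mouse 1, 2 or 4 or Western diet VB mouse 2 or 5, 5 without control diet VB mouse 3 and 3 without both Western diet VB mice 2 and 5. The female count was 2 without these 2 mice and 3 without mice 1 and 4. Moxd1, a monooxygenase-like gene that is strongly male-biased in mouse liver, lay at 0, 0.6, 0.0784, 0.141 and 2.01 CPM on the control diet and 166, 216, 29.2, 23.3 and 403 on the Western diet. Every Western diet mouse was above every control mouse, with a spread of over 10-fold within the Western diet group. Its log2 change of 8.22 (SE 1.49, adjusted p = 0.00249) went to 9.59 without control diet VB mouse 5 and to 7.59 without Western diet VB mouse 5, and it was not called by limma-voom (8.86, adjusted p = 0.0863). In vehicle mice it ran from 1.05 to 43.5 CPM on the control diet and from 0.132 to 13.1 on the Western diet. The glucuronosyltransferase gene Ugt2b1 rose by 0.76 (SE 0.12), and Nudt7, a peroxisomal coenzyme A hydrolase gene, by 0.76 (SE 0.16), which was not called without Western diet VB mice 2 and 5 (0.59). The male-biased genes Elovl3 (-0.50, SE 0.22) and Hsd3b5 (0.50, SE 0.22) did not pass.

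Among the female-biased genes, Cyp17a1 fell by 1.52 (SE 0.30) and Abcd2, described above, by 3.29. Cyp2b9 lay at 49.1, 6.45, 5.18, 6.21 and 1.46 CPM on the control diet and 0, 0.106, 0.491, 1.13 and 0 on the Western diet. Control diet mouse 1 alone held most of that group's signal, and without it the log2 change of -5.23 (SE 1.26, adjusted p = 0.0191) became -3.73 and was not called. Without Western diet VB mouse 4 it was -6.26. With all mice kept, Cyp2b9 was not called by limma-voom (-5.51, adjusted p = 0.188) or with quality weights (-5.24, adjusted p = 0.21), nor by edgeR without mice 1 and 4 (-5.95) or 2 and 5 (-4.61). Of 9 growth hormone axis genes 1 fell, Cish, a feedback inhibitor that growth hormone induces. It lay at 2.95, 50.4, 20, 26.6 and 45.8 CPM on the control diet and 1.61, 2.44, 6.22, 4.32 and 2.36 on the Western diet, where control diet mouse 1 overlapped the Western diet range (-3.07, SE 0.75, adjusted p = 0.0211). The call was lost without control diet VB mouse 2 (-2.78) or Western diet VB mouse 5 (-2.96), and without Western diet VB mice 1 and 4 (-2.97) or 2 and 5 (-2.83). It was also lost with the clock score (-2.88, adjusted p = 0.0653), limma-voom (-2.69, adjusted p = 0.0902) and quality weights (-2.70, adjusted p = 0.0944). Igf1 stood at 0.14 (SE 0.11).

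**Figure D3:**
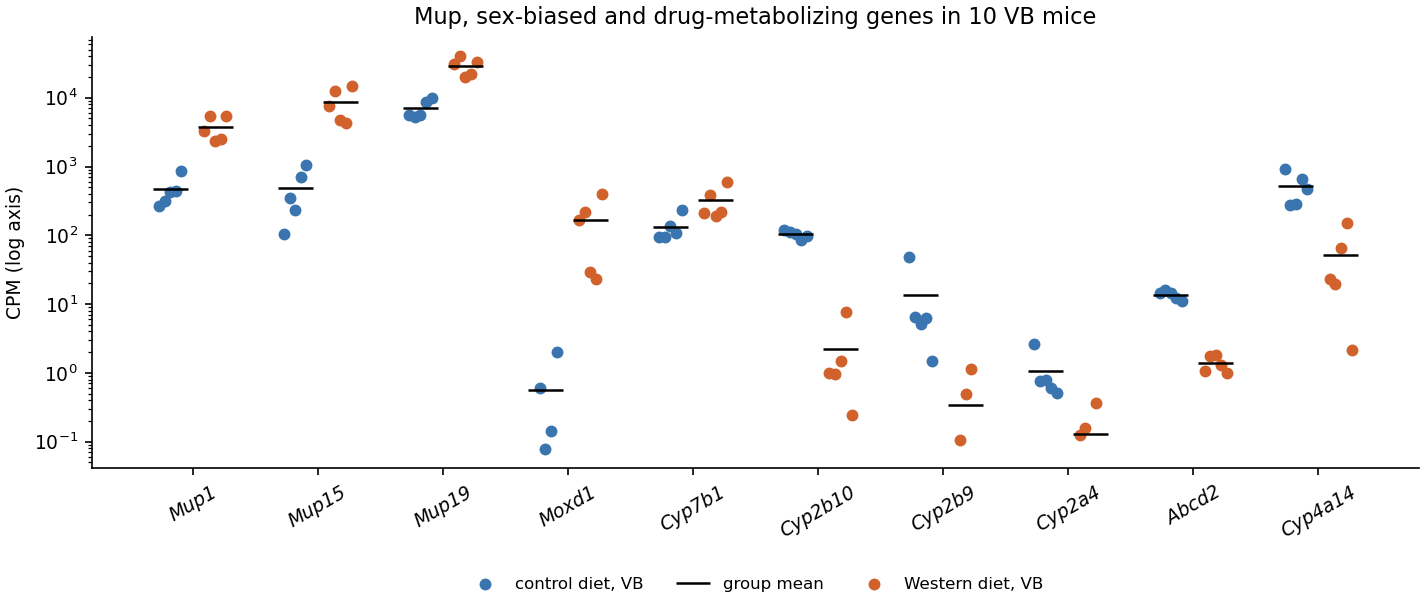
Levels (CPM, log axis) of 10 Mup, sex-biased and drug-metabolizing genes in the 5 control diet (blue) and 5 Western diet (orange) VB mice, with 1 point per mouse and a line at the group mean. Mice at 0 (1 in Moxd1, 2 in Cyp2b9 and 2 in Cyp2a4) cannot be drawn on a log axis. The Mup genes and Moxd1 lie higher and Cyp2b10 and Abcd2 lower in every Western diet mouse.

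Drug-metabolizing genes fell more often than they rose. Of 25 tested genes of xenobiotic P450 enzymes and their receptors (30 listed, the others too low to test) 10 fell and 1 rose, with a median log2 change of -0.58, and 9 to 11 fell with single mice left out. The 1 that rose, Cyp3a59, lost its call without any 1 of the 5 control diet VB mice or Western diet VB mouse 1 or 4. All 10 that fell belong to the Cyp1 and Cyp2 families, 10 of 17 tested members there. Because these genes resemble each other closely, reads may have been assigned to the wrong member, and values of single genes carry that uncertainty. Cyp2b10, the classical target of the receptor CAR (chromosome 7, 25897620 to 25926624, plus strand, GRCm38), lay at 121, 110.5, 105, 84.4 and 96.5 CPM on the control diet and 0.994, 0.954, 1.47, 7.62 and 0.24 on the Western diet. Mouse 4 held the highest Western diet level and was still below every control mouse. The mean went from 103 CPM ± 13.7 to 2.26 ± 3.03 (SD, n = 5 mice in each group), a log2 change of -5.52 (SE 0.55, adjusted p = 5.52e-06), which was -6.79 without Western diet VB mouse 4. Cyp2c29, another CAR and PXR target, fell from 3437 CPM ± 269 to 1133 ± 306 CPM, by 1.6 (SE 0.15). The AHR target Cyp1a2 fell from 855 CPM ± 111 to 416 ± 65.8 CPM, by 1.04 (SE 0.13), Cyp2c55 by 1.92 (SE 0.22) and Cyp2c54 by 1.14 (SE 0.13). The main PXR target Cyp3a11 did not pass over all genes (-0.58, SE 0.24, adjusted p = 0.154), though it did with the mouse number as a replicate block (-0.66) or quality weights (-0.63), and the genes of the receptors CAR and PXR stood at -0.19 (Nr1i3, SE 0.17) and -0.19 (Nr1i2, SE 0.11). In vehicle mice 9 of the 17 Cyp1 and Cyp2 genes fell and 5 rose. Cyp2b10 changed there by -2.72 (SE 0.47), Cyp1a2 by -1.78 (SE 0.13) and Cyp3a11 by 1.15 (SE 0.24). The difference from vehicle mice was called lower for Cyp2b10 (-2.80, SE 0.68), which was -4.07 without Western diet VB mouse 4, and for Cyp3a11 (-1.73, SE 0.33). It was called higher for Cyp1a2 (0.74, SE 0.18), which fell less in VB mice.

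Conjugation genes followed in part. Of 38 phase II genes and NRF2 targets 10 fell and 3 rose (median -0.18), and 6 fell without Western diet VB mouse 2 or 5. Glutathione transferases made up 6 of the 10 that fell. Gstm1 lay at 2370.1, 2219, 2151, 2426 and 1938 CPM on the control diet and 1031, 918, 1155, 1474 and 873 on the Western diet, without overlap (-1.03, SE 0.14, adjusted p = 8.73e-05). Gstm3 fell by 1.49 (SE 0.24), Gstm6 by 0.76 (SE 0.11) and the glucuronosyltransferase gene Ugt1a9 by 1.53 (SE 0.27). Of the 3 that rose (Osgin1, Gstp1 and Ugt2b1) 1 remained called without any 1 of control diet VB mice 1 to 4 or Western diet VB mice 1 and 5.

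Few stress genes passed, but most had changes above 0. Of 17 heat shock genes 2 rose and none fell (median 0.29), and 5 rose without Western diet vehicle mouse 4. The log2 change was above 0 in 16 of the 17, against 6355 of all 12616 genes tested. The difference from vehicle mice was called higher in 6 of the 17 and lower in none (3.63% of all genes higher). Hspa1a, which encodes the inducible HSP70 chaperone, lay at 2.41, 1.88, 1.61, 0.47 and 0.549 CPM on the control diet and 5.59, 6.99, 5.11, 5.61 and 2.55 on the Western diet. The lowest Western diet mouse, mouse 5, lay just above the highest control mouse (1.88, SE 0.35, adjusted p = 0.00165). Its near-identical copy Hspa1b did not pass (0.70, SE 0.38), and reads shared by both could be split either way. Bag3, a co-chaperone gene, rose from 16.3 CPM ± 3.25 to 29.8 ± 5.47 CPM, by 0.87 (SE 0.13). Both genes changed in the opposite direction in vehicle mice, where Hspa1a ran from 3.16 to 7.83 CPM on the control diet and from 0.429 to 0.824 on the Western diet, and the difference was 5.05 (SE 0.53, adjusted p = 1.16e-05) for Hspa1a and 1.59 (SE 0.19) for Bag3. Cited2, a transcription cofactor gene, rose by 0.68 (SE 0.12), Ddc, which encodes aromatic amino acid decarboxylase, by 0.90 (SE 0.13), and Grpel2, a mitochondrial co-chaperone gene, fell by 0.82 (SE 0.15). All 3 belong to none of the stress lists and were named because their difference had a low p. They changed in the opposite direction in vehicle mice, with differences of 1.26, 1.41 and -1.57, which such a choice favours. No gene of the 24 tested (25 listed) in the endoplasmic reticulum stress list passed (median 0.19), though 20 had a change above 0. The difference from vehicle mice was called higher in 6 of them and lower in none. Of 21 clock genes 1 rose and 2 fell (median 0.03): Per2 rose by 0.84 (SE 0.19), Rora fell by 0.39 (SE 0.08) and Cry1 by 0.66 (SE 0.17). With Western diet VB mouse 5 left out 4 clock genes fell, and with Western diet VB mouse 2 or Western diet vehicle mouse 4 left out 2 rose. The call for Cry1 was lost without control diet VB mouse 1 (-0.60) or 4 (-0.63) or Western diet VB mouse 4 (-0.57), without both Western diet VB mice 1 and 4 (-0.53) and with the clock score as a covariate (-0.51, adjusted p = 0.0761). Arntl, a core activator of the clock, did not pass (-0.84, SE 0.31, adjusted p = 0.113). It passed without Western diet VB mouse 5 (-1.28), whose level was within the control range, without both mice 2 and 5 (-1.39) and by limma-voom (-0.96, with quality weights -1.01).

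Acute phase genes rose in part and unevenly between mice. Of 22 tested genes (23 listed) 6 rose and 1 fell (median 0.12), and 2 rose without Western diet VB mice 1 and 4. Saa1, which encodes serum amyloid A, lay at 26.4, 18.9, 14.1, 22 and 25.8 CPM on the control diet and 923, 77, 31.3, 331 and 102 on the Western diet. Mice 1 and 4 were far above the rest of their group, while all 5 exceeded the control range (3.77, SE 0.71, adjusted p = 0.00339). The log2 change was 2.66 without Western diet VB mouse 1. Saa2, a near-identical neighbour, was highest in the same mice (394, 15.2, 10.6, 116 and 26.4 CPM on the Western diet). Its call was lost with the clock score (2.89), only the VB groups in the fit (3.85), quality weights (2.04) and without mice 1 and 4 (1.17). The same mice 1 and 4 had the lowest summed levels of stellate and endothelial cell markers, and their part in the result was not tested. Orm1 and Orm3, of the acid glycoprotein family, rose by 0.69 (SE 0.16) and 1.91 (SE 0.39), and neither passed without mice 1 and 4. The single gene that fell, Serpina3m, lost its call without control diet VB mouse 1, 2, 3 or 4 or Western diet VB mouse 2 or 5, and 2 genes fell without Western diet VB mouse 1.

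MHC class II genes, which antigen-presenting cells use to show peptides, fell in 4 of 7 tested (median -0.80), H2-Aa, H2-Ab1, H2-Eb1 and Cd74, and none rose. H2-Ab1 lay at 60.7, 41.1, 44.2, 30.1 and 54.4 CPM on the control diet and 26.3, 23.5, 25.4, 26.2 and 17.4 on the Western diet, below every control mouse (-0.96, SE 0.18, adjusted p = 0.00176). Cd74, the invariant chain gene, fell from 109.5 CPM ± 25.4 to 62.9 ± 11.8 CPM, by 0.80 (SE 0.17). The count was 4 with any single mouse left out and 2 without both Western diet VB mice 2 and 5. Markers of macrophages, which carry these molecules, did not pass in any of 8, and their summed level overlapped between diets (160.5 to 220.6 CPM and 122 to 266). In whole liver, fewer cells of a type and less RNA per cell cannot be told apart.

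Hepatocyte markers stayed by far the most abundant, at a summed 71840 to 77930 CPM on the control diet and 58800 to 72370 on the Western diet, with Alb lower as 1 of 9. Stellate cell markers summed to 206 to 235 CPM and 81.7 to 219.6, with Reln and Dcn lower of 8, and the lowest sums in Western diet mice 1 and 4. Endothelial markers were lowest in the same mice, with sums of 130.7 to 162.1 CPM on the control diet and 71.9 to 175.1 on the Western diet, and none of 8 passed. Kdr stood at 7.64 and 6.28 CPM in mice 1 and 4, against 15.5 to 22.7 on the control diet. Clec4g, Lyve1, Cdh5, Oit3 and Fcgr2b also lay below the control diet range in both mice. Stab2 and Pecam1 lay within it in mouse 4 (21.3 and 16.9 CPM) and below it in mouse 1 (15.6 and 14.2 CPM). Their control diet ranges were 17.1 to 22 CPM and 15.4 to 18.15 CPM. B and plasma cell markers summed to 10.2 to 14.6 CPM and 15.2 to 26.3, with Jchain and Igkc higher of 5 tested. Other members of that list did not follow. Cd79a ran from 0.24 to 0.777 CPM on the control diet and from 0.0621 to 0.777 on the Western diet. Cd79b ran from 0.392 to 1.14 and from 0.0621 to 1.11, and Ms4a1 from 0.0893 to 0.235 and from 0 to 0.2455. Of 4 tested fat cell markers 1 rose, Cfd, which encodes adipsin. It lay at 0.0893, 1.16, 2.71, 0.329 and 1.01 CPM on the control diet and 4.97, 32.3, 19.6, 22.4 and 11.6 on the Western diet (4.05, SE 0.69, adjusted p = 0.00156; 4.78 without control diet VB mouse 3). The defining fat cell marker Adipoq stood at 7.31 CPM in Western diet mouse 2 and 4.09 in mouse 5 and at 0 in mice 1, 3 and 4 of that group, and at 0 to 0.0784 CPM on the control diet. In those 3 Western diet mice Cfd was 4.97 to 22.4 CPM. Erythroid marker sums reached 4948 CPM on the Western diet against 1364 on the control diet, and no marker passed. The pancreatic markers Prss1, Cel and Pnlip and the muscle marker Myh4 were at 0 in all VB mice. Other members of these lists were not. Western diet mouse 5 held the muscle markers Acta1 (3.94 CPM), Ckm (0.913) and Tnnt3 (0.481), which were at 0 on the control diet. Acta1 was also at 0.106 CPM in Western diet mouse 2, and Mylpf was present in all VB mice. Cela1, of the pancreatic list, lay at 21.9 to 42.4 CPM.

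Several of the genes with the largest single changes were of low level. Rnase2a, which encodes a ribonuclease of the eosinophil family, was at 0 in all 5 control diet mice and at 3.29, 4.93, 0.982, 1.65 and 3.99 CPM on the Western diet. Against a floor of 3 counts per library (0.13 CPM) it was at least 22.8-fold higher. Lrp2, the endocytic receptor gene megalin, lay at 0.223, 0.16, 0.196, 0.0941 and 0.229 CPM on the control diet and 2.11, 1.64, 0.818, 0.566 and 4.52 on the Western diet, with mouse 5 highest (3.37, SE 0.59; 2.77 without Western diet VB mouse 5). Raet1e, which encodes a stress ligand of natural killer cells, fell from 4.14 CPM ± 1.59 to 0.422 ± 0.162 CPM, by 3.30 (SE 0.35). Tcf24, a transcription factor gene, went from 1.3 CPM ± 1 to 0.0442 ± 0.0696 CPM, with counts in Western diet mice 1 and 2 alone, and Fam19a2, which encodes a secreted chemokine-like protein, from 1.16 CPM ± 0.371 to 0.0309 ± 0.069, with counts in Western diet mouse 4 alone.

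**Figure D4:**
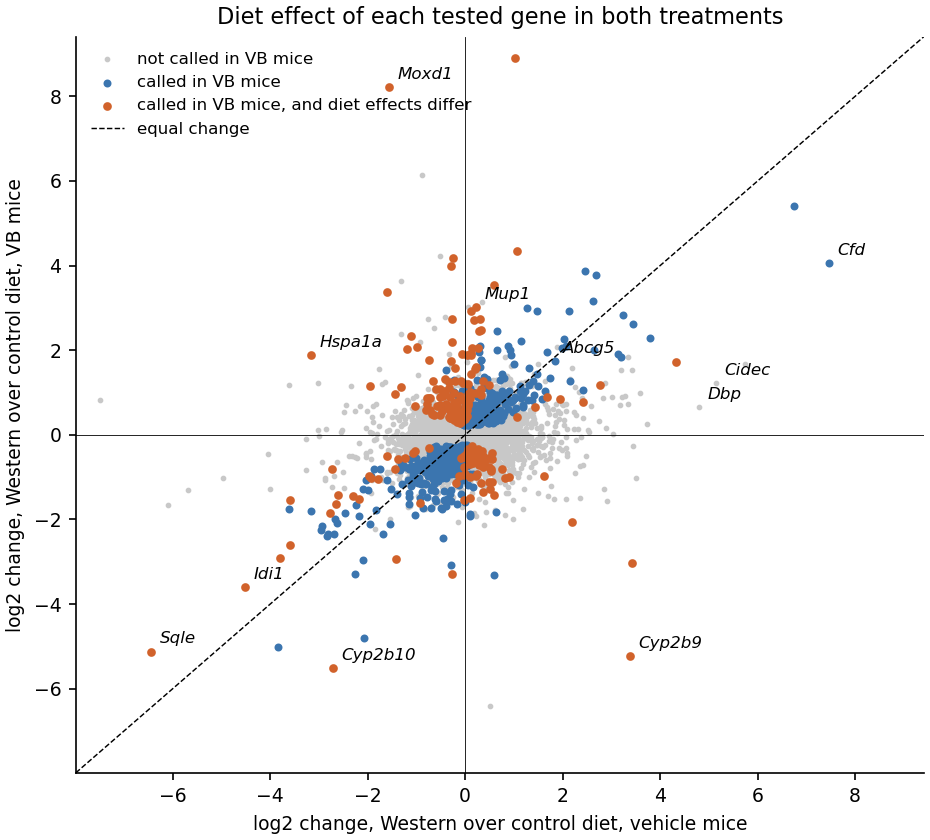
Log2 change, Western over control diet, of each of the 12616 tested genes in vehicle mice (x axis) and VB mice (y axis), with genes called in VB mice in blue and those whose diet effects also differ in orange. Sqle and Idi1 lie low on both axes, Moxd1, Mup1 and Hspa1a lie high in VB mice alone, and Cidec and Dbp lie far to the right.

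Set beside the vehicle mice, the diet change in VB mice was shared in part. In vehicle mice 2083 genes (16.5%) changed. Called in both with the same direction were 291 genes, which is 35.8% of the VB calls and 14% of the vehicle calls, and 30 were called in opposite directions. Of the 813 genes 609 had the same sign in vehicle mice. Across the 12616 genes, which are not independent replicates, Pearson's r of both log2 changes was 0.28 and Spearman's rho 0.23. Of the 492 VB calls that were not called in vehicle mice, the difference itself was called for 159, so for the remainder a difference between the treatments was not shown. Among genes called in both tests, 117 rose in VB mice with a higher effect than in vehicle mice, 76 fell with a lower one, 21 fell with a higher one and 7 rose with a lower one.

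Cholesterol synthesis belongs to the changes that both treatments shared, with 19 of 20 genes lower in vehicle mice as well. The fall was smaller in VB mice in 11 of the 20 by the test of the difference, larger in none, and the median difference was 0.77. Mvd, of the mevalonate pathway, fell by 1.55 (SE 0.22) in VB mice and changed by -3.59 (SE 0.25) in vehicle mice, a difference of 2.04 (SE 0.33, adjusted p = 0.000654). Insig1 differed by 1.57 (SE 0.34). For Abcg5 and Abcg8 the differences were -0.10 (SE 0.23) and -0.05 (SE 0.23), and no LXR gene of the 12 passed that test.

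**Figure D5:**
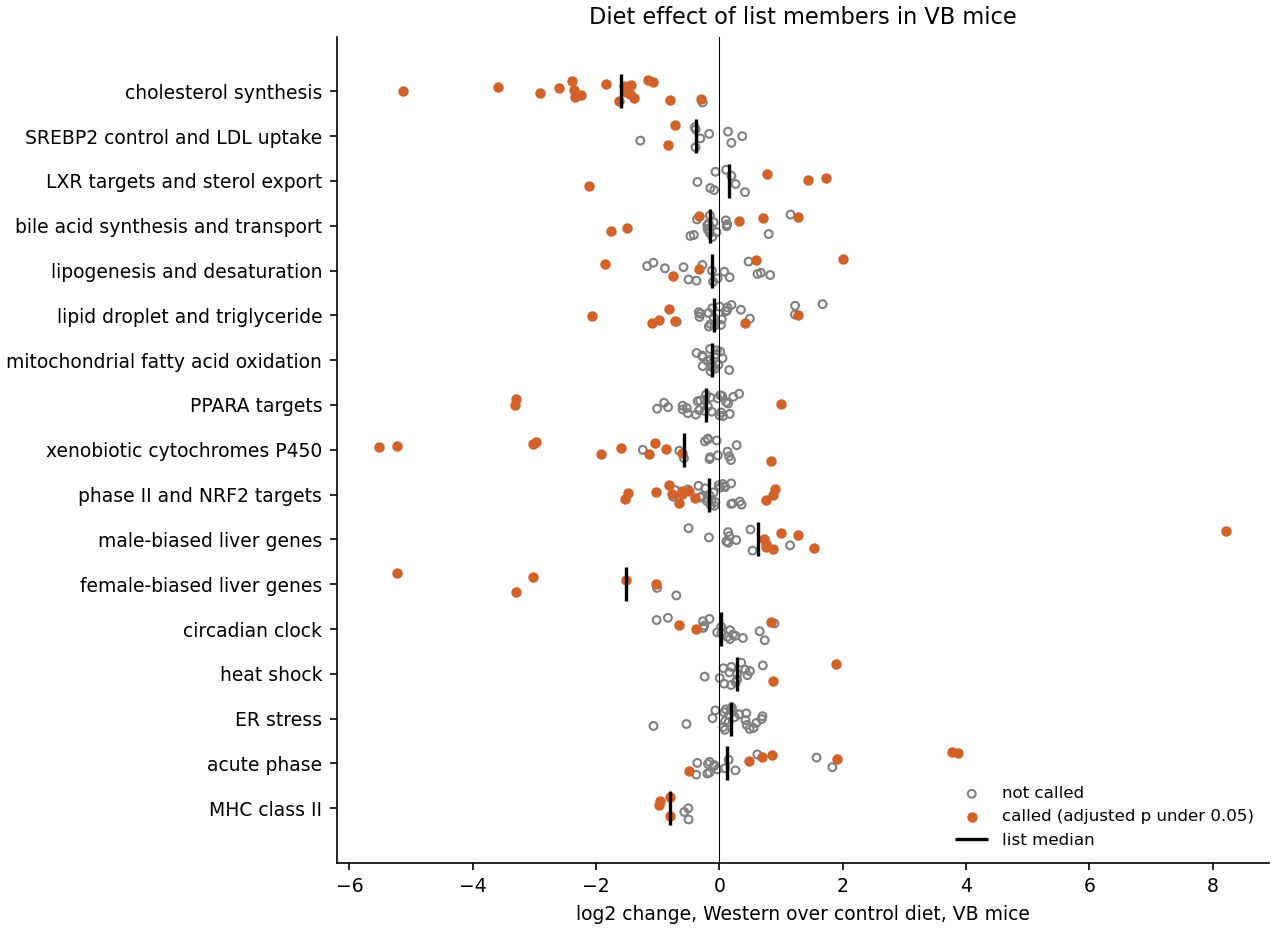
Log2 change, Western over control diet in VB mice, of each tested member of 17 gene groups, filled where the gene passed the test, with a line at the median of the group. Cholesterol synthesis lies wholly below 0, the oxidation and endoplasmic reticulum stress groups hold no filled point, and the P450 and female-biased groups reach far to the left.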

How the data were processed

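Raw counts per gene were deposited by the authors as 40 columns, 2 lanes for each of 20 mice, with 32544 gene rows; every column was mapped to a sample. Per the labels' protocols RNA was taken with Trizol and libraries were made with a TruSeq kit. GRCm38 is named in the submitters' processing notes. Not given in the sources used here: aligner, counter, annotation, strand.

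Lane counts were summed per mouse. Genes with low counts were removed (filterByExpr, minimum count 10, minimum total 15), which left 12616 genes with 99.95% of counts. All 20 mice in 4 groups were fitted together with TMM scaling and edgeR's robust quasi-likelihood test (edgeR 4.0.16, R 4.3.3), and p-values were adjusted by Benjamini-Hochberg over all genes at 0.05. The p-values measure the spread between mice only. CPM are on TMM-scaled library sizes. Counts ran from 16315342 to 24566686 per mouse. On simulated data with 12441 genes for the comparison in VB mice, the test recovered 21 of 48 genes altered 1.5-fold, 41 of 50 at 2-fold, 44 of 49 at 3-fold and 45 of 48 at 4-fold, and 8 unchanged genes were called. The simulated counts were drawn for each gene on its own from the spread that edgeR estimated. Few genes were altered, none of very low level, and no mouse stood apart, so these rates need not hold for the real mice. Alternatives used limma 3.58.1 and DESeq2 1.42.0.

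The comparison, the gene lists and the tests were chosen with earlier results of these data known. The named genes are a fixed set of regulators and enzymes, the 10 largest rises and 10 largest falls among named genes with groups that do not overlap and at least 1 CPM, from each list the called members with the lowest p (at most 5), the 8 smallest p for the difference of diet effects, and the cholesterol synthesis and SREBP2 genes; some of them are not reported here. Agpat2, Vldlr, Cyp2c70, Amacr, Gstp1, Osgin1, Serpina3m, Elovl3, Hsd3b5, Hspa1b, Igf1, Cyp3a59, Nr1h2, Nr1h3, Nr1i2 and Nr1i3 and the cell markers were named after their values were seen. Gene positions are from GENCODE release 21 for mouse (M21, GRCm38), in which 12275 of the 12616 symbols were found. Promoters are from RefSeq on GRCm38.p6, which held 22 of 31 sterol genes.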

Additional observations from a re-analysis of the deposited data

Results flagged for a closer look

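Of 280 sets of 5 mice (each named gene in each VB group, and 4 library measures), 15 held a mouse that stood apart from the other 4, its gap to the nearest being over 0.71 of the whole range, which chance gives in about 1 of 20 sets. On the control diet mouse 1 was the highest for Ces1d (858.5 CPM), Cyp2a4 (2.59 CPM), Cyp2b9 (49.1 CPM) and Ugt1a9 (35.9 CPM) and the lowest for Pfkfb1 (35.2 CPM). Control diet mouse 2 was the highest for Pltp (173.5 CPM). On the Western diet mouse 4 was the highest for Apoa4 (699 CPM), Cyp2b10 (7.62 CPM) and Fam19a2 (0.154 CPM) and the lowest for Myc (1.24 CPM). Western diet mouse 1 was the highest for Cth (419 CPM) and Saa2 (394 CPM), mouse 3 for Fdps (92.7 CPM) and Idi1 (21 CPM), and mouse 5 for Arntl (15.6 CPM).

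For 58 of the 136 named genes the diet effect differed between VB and vehicle mice by edgeR's quasi-likelihood test, given here for 57 of them as the log2 difference, VB minus vehicle. Sterol genes had positive differences, 0.90 for Cyp51, 1.01 for Dhcr7, 0.99 for Fdps, 0.92 for Idi1, 1.57 for Insig1, 0.66 for Lss, 2.04 for Mvd, 0.94 for Mvk, 1.18 for Pmvk, 0.63 for Sc5d, 1.31 for Sqle and 0.84 for Tm7sf2. The Sqle difference lost its call in 12 of the 20 fits that left out 1 mouse. Among genes of lipid and carnitine metabolism the differences were -3.02 for Abcd2, -0.42 for Bbox1, -1.96 for Cd36, -3.93 for Cidec, -1.06 for Cpt1a, 0.91 for Lpl, 0.89 for Mlxipl, -0.54 for Plin2, -0.77 for Ppara, -2.09 for Pparg and -1.65 for Slc22a5. Mup genes had differences of 2.79 for Mup1, 3.28 for Mup8, 1.85 for Mup11, 3.01 for Mup12, 2.17 for Mup14, 4.42 for Mup15, 2.95 for Mup17, 1.92 for Mup19 and 4.28 for Mup-ps20. Genes that differ between the sexes or act on drugs and bile acids had differences of 9.78 for Moxd1, 1.11 for C6, 0.78 for Cyp4a12b, 1.93 for Cyp7b1, 0.99 for Nudt7, 0.70 for Ugt2b1, 0.74 for Cyp1a2, -6.46 for Cyp2a4, -8.61 for Cyp2b9, -2.80 for Cyp2b10, -0.68 for Cyp2c29, -1.73 for Cyp3a11, -1.83 for Fmo2 and -1.59 for Abcc3. For clock and stress genes they were 2.43 for Arntl, -4.15 for Dbp, 5.05 for Hspa1a and 1.59 for Bag3, and without control diet vehicle mouse 4 the value for Dbp was -5.44. The remaining differences were 1.26 for Cited2, 1.41 for Ddc, -1.57 for Grpel2, 0.78 for C9, 0.86 for Rsad2, 0.47 for Rpl7l1 and 4.97 for Lrp2. For Rnase2a, at 0 in all control diet VB mice, no size of the difference is given. The clock score differs without overlap between the vehicle groups, and between VB and vehicle mice on each diet. With it as a covariate none of these differences passed, but the score itself holds part of the difference.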

How the results depend on the processing

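In VB mice 813 genes were called, and the 20 fits that each left out 1 mouse gave from 541 to 1397. A tested fold minimum of 1.5 left 102, limma-voom with quality weights gave 1459, and leaving out Western diet VB mice 2 and 5, or 1 and 4, gave 520 and 493, both chosen after seeing the data. RLE scaling (815), upper-quartile scaling (834), no filter (632), a minimum count of 50 (834), single lanes (622 and 648), only the VB groups in the fit (1103), limma-voom (899), DESeq2 (1200), Mup genes left out of library sizes (834) and the clock score (737) stayed within 1.5 times. For the difference of diet effects 964 genes were called, with 665 to 1702 when 1 mouse was left out, 124 with the fold minimum, 0 with the clock score (633 at an unadjusted p under 0.05), 1673 with quality weights and 526 without Western diet VB mice 2 and 5.

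With the mouse number as a replicate block 973 genes were called in VB mice and 1146 for the difference. Same-numbered VB mice had correlations of deviations of 0.0495, 0.0161, 0.0148, 0.0431 and 0.126. These values are low, but they cannot decide whether same-numbered mice shared a cage, litter or handling, and the labels name no pairing. Only mice 1 and 5 correlated best with their own number.

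Plin2 stood at 0.0029 in VB mice and turned negative with upper-quartile scaling (-0.0020), no filter (-0.015), a minimum count of 50 (-0.011), the replicate block (-0.0037), lane 2 alone (-0.011), the clock score (-0.072), Mup genes left out (-0.0079), only VB groups (-0.0032), limma-voom (-0.0073, with quality weights -0.025), DESeq2 (-0.00056) and without mice 1 and 4 (-0.11), and ran from -0.11 to 0.068 with 1 mouse left out. Fgf21 turned to -0.28 with the clock score, -0.029 with quality weights and -0.20 without mice 1 and 4, and ran from -0.20 to 0.34 with 1 mouse left out. With the clock score Dbp turned to -0.42 in VB mice. The same covariate turned the difference of diet effects to 0.0037 for Bbox1, -0.18 for C6, 0.27 for Cyp2c29, -0.33 for Cyp7b1, 0.78 for Dbp, -0.42 for Lpl, -1.04 for Mup-ps20, -0.11 for Mup17, -1.05 for Mup8, -0.25 for Nudt7 and 0.13 for Ppara. The cause was not tested. Scaling alternatives moved the median of all genes by under 0.1.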

Other observations

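Groups not described above held few called genes in VB mice. Of 27 genes of amino acid breakdown and the urea cycle 2 fell and none rose (median log2 change -0.09), Got1, the cytosolic aspartate aminotransferase, from 585 CPM ± 68.9 to 320.2 ± 46.6 CPM, and Agxt, which removes glyoxylate, from 615 CPM ± 51.9 to 339.6 ± 28.7. Their log2 changes were -0.87 (SE 0.13) and -0.86 (SE 0.16), and in both genes the diets did not overlap. Without Western diet VB mouse 1 the count that fell was 4. Among 20 flavin monooxygenase and methyl cycle genes 3 fell, Fmo2, Gnmt and Cth, and 1 rose, Fmo5. Fmo5 lost its call with any 1 of 7 of the VB mice left out, Fmo2 without Western diet VB mouse 1 (-0.96), 2 (-0.90) or 5 (-0.93), and 5 genes fell without Western diet vehicle mouse 4. With the clock score as a covariate 7 fell and none rose in this list, 5 of the amino acid list fell, and in the lists below 3 complement, 2 metallothionein and iron, 1 gluconeogenesis, 2 glucocorticoid and 2 zonation genes fell, no immediate-early gene fell and 1 interferon-stimulated gene rose. Gnmt, which disposes of surplus methyl groups, fell from 2424 CPM ± 129 to 1838 ± 276 CPM, by 0.40 (SE 0.10), a call lost without Western diet VB mice 2 and 5 (-0.33). Of 21 glycolysis, fructose and glycogen genes 1 rose and 2 fell, a count of falls that was 0 or 1 in 13 of the 20 fits that left out 1 mouse. The 1 that rose was the fructose transporter gene Slc2a5, from 3.45 CPM ± 0.863 to 7.11 ± 1.92 CPM (1.03, SE 0.20).

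Of 22 complement and coagulation genes 1 rose, C9, a subunit of the membrane attack complex. It lay at 328, 259, 309, 317 and 338 CPM on the control diet and 671, 577, 450.1, 439 and 694 on the Western diet, without overlap (0.87, SE 0.13). The diet effect on C9 differed from that in vehicle mice by 0.78 (SE 0.18). Of 18 interferon-stimulated genes 2 rose, Rsad2 and Psmb9, and 1 fell, Igtp. Rsad2, which encodes the antiviral protein viperin, rose by 0.82 (SE 0.14). Psmb9 was lost without control diet VB mouse 4 or Western diet VB mouse 1 or 4, and Igtp without control diet VB mouse 1 or 3 or Western diet VB mouse 5. Without a covariate no gene passed in the groups of gluconeogenesis and insulin signalling (14 tested), NAD metabolism (16), metallothioneins and iron (17), mitochondrially encoded genes (13, median 0.44), nuclear oxidative phosphorylation (78, median 0.14) or inflammation and matrix (14). Of 82 cytosolic ribosomal protein genes 1 rose, Rpl7l1, which lost its call without control diet VB mouse 2 or 3 or Western diet VB mouse 1, 2 or 5. In each of 5 further groups at most 1 gene fell: glucocorticoid targets (1 of 12, Hsd11b1), immediate-early genes (1 of 12, Myc), hepatokines (1 of 14, Angptl6, with Tsku higher), zonation (1 of 20, Cyp1a2) and proliferation (1 of 15, Rrm2). Leaving out 1 VB mouse could take the falls to 0 in these groups except zonation, which had 2 falls without Western diet VB mouse 1.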
